A study of Mus musculus with 14 samples.

Results

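The genes described here are 33 markers of T lymphocytes and natural killer (NK) cells, chosen by name out of 34797 gene names on the array. They comprise 23 T cell genes and 10 NK and cytotoxic genes, each read from the probe with the highest mean signal over the 14 arrays. The study profiled lymphatic endothelial cells of C57Bl/6 mouse lymph nodes from the medullary sinus, which drains lymph out of the node, and from the subcapsular sinus, which receives it. FACS (fluorescence-activated cell sorting) gave 2 medullary and 2 subcapsular samples of 1200 cells each, sorted from digested nodes of many body sites with antibodies to podoplanin and CD73, a lineage cocktail and a dead-cell dye; the labels do not give the marker combination that defined each sinus. LCM (laser-capture microdissection) gave 5 medullary and 5 subcapsular samples of 50 CD31-stained cells each, cut from sections of inguinal, axillary and brachial nodes that were also stained for F4/80. The labels call the samples biological replicates without tying them to animals, so p-values measure the spread between these samples only. CD3e, the protein of a gene described here, was one target of the lineage cocktail.

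T cells sense antigen through the T cell receptor, whose CD3 chains carry tyrosine motifs that Lck phosphorylates and Zap70 docks onto, while the coreceptors CD4 and CD8 bring Lck to the complex. NK cells and cytotoxic T cells kill through perforin and granzymes and are steered by activating and inhibitory lectin-like receptors. Lymphocytes enter lymph nodes through high endothelial venules and leave through the sinuses, and these genes are commonly used to mark them.

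The probe sequences below are taken from the arrays, with mm9 coordinates. The probes for Cd3d and Cd247 are shown because they lie over the signalling motif itself. Their capitals mark the codon pairs of the immunoreceptor tyrosine-based activation motif (ITAM), which were found in 2 of the 33 member probes and in 72 of 55681 probes on the array (0.129%). Cd3d (CD3 delta) was read at chr9:44794171-44794402 on the plus strand and Cd247 (the zeta chain) at chr1:167786567-167787585 on the plus strand, both across an exon junction. Lef1, which had the widest sinus difference among these genes, was read at chr3:130907851-130926012 on the plus strand, also across a junction, and its sequence has no marked part.
Cd3d probe: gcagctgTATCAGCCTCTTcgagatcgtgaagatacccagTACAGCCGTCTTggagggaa
Cd247 probe: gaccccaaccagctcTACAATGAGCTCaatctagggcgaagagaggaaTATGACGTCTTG
Lef1 probe: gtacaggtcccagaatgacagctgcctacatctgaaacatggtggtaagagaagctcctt

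Tcf7 and Lef1 encode sister transcription factors that bind the letters CTTTGA. In RefSeq promoter windows of 300 bases (GRCm38.p6, 250 before and 50 after the start), CTTTGA occurred on either strand in 8 of 33 windows of the 24 members that had one, against 5257 of 32851 windows of all genes (24.2% and 16%). The members with a match were Bcl11b, Cd247, Cd3d, Ctla4, Klrk1, Lef1, Trat1 and Zap70. Cd3d had 2 matches, set in capitals in the 250 bases before its start at chr9:44981536-44981785 on the plus strand. A match describes the letters only.
Cd3d promoter: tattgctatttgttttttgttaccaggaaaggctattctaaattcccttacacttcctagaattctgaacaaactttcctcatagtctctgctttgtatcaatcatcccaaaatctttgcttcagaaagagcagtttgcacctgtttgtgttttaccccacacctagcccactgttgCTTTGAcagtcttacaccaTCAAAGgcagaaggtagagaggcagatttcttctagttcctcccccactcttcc

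Levels below are log2 signals over the 75th percentile of the probes on the same array, so 0 is that percentile and a negative level is a dimmer probe. Well above background is the scanner software's own flag. Levels were not compared between probes.

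T and NK cell transcripts were measurable in nearly every sample. Of the 33 genes, 30 and 27 were well above background in the medullary FACS samples, against 33 and 31 in the subcapsular FACS samples. In LCM, 31 to 32 were above background in the medullary samples and 22 to 29 in the subcapsular samples. Over all genes, in the same replicate order, those shares were 82.6% and 73.9% in medullary FACS and 81.3% and 71.4% in subcapsular FACS, with 73% to 79.4% in medullary LCM and 57.5% to 74.1% in subcapsular LCM. The subcapsular LCM samples thus detected fewer T and NK genes than the medullary ones, and also fewer genes in general, with some overlap. The overlap came from subcapsular replicate 5, on array row 2 of slide 1, with 29 members and 74.1% of all genes above background. Subcapsular replicates 1 to 4, on row 1 of slide 1, had 22 to 28 members and 57.5% to 65.6% of all genes. No medullary LCM sample lay on that row of slide 1, and the part of array position was not tested. Replicate 2 of the subcapsular LCM group had the lowest detection and stood apart in several genes below.

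**Figure D1:**
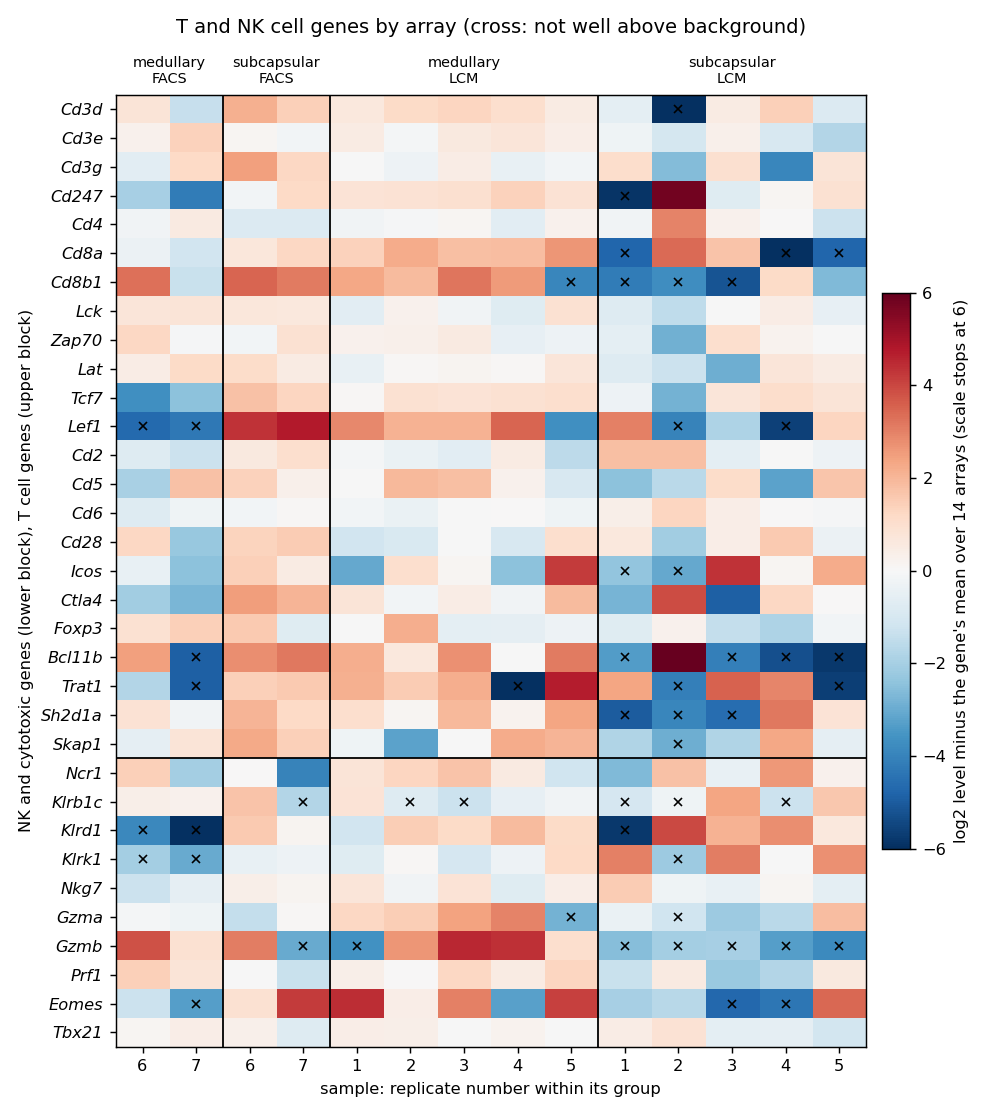
Each row is a gene and each column an array, coloured by the log2 level minus that gene's mean over 14 arrays, with crosses where the probe was not well above background. In subcapsular LCM replicate 2, Cd247, Cd4 and Bcl11b are high and Cd3d is low, and Lef1 is crossed in both medullary FACS samples.

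Markers of other cells were present as well. All 8 B cell genes were well above background in every medullary LCM sample, and 7 or 8 in each other sample; their summed level ran from 6.27 to 7.27 in medullary FACS, 7.59 to 8.27 in subcapsular FACS, 6.96 to 7.68 in medullary LCM and 7.86 to 9.52 in subcapsular LCM. Of 9 macrophage genes, 6 to 9 were above background in each sample, and their summed level ran from 3.9 to 4.81 in medullary FACS, 5.13 to 5.19 in subcapsular FACS, 4.74 to 5.89 in medullary LCM and 6.88 to 9.32 in subcapsular LCM. Of the 8 genes of blood endothelium and venules, 7 were above background in both medullary FACS samples, all 8 in both subcapsular FACS samples, 7 or 8 in medullary LCM and 4 to 7 in subcapsular LCM. Their summed level ran from 2.14 to 2.45 in medullary FACS, 4.4 to 5.58 in subcapsular FACS, 5.82 to 7.12 in medullary LCM and 2.23 to 6.85 in subcapsular LCM. Of the 7 lymphatic endothelial markers, 4 were above background in both medullary FACS samples, 4 or 5 in subcapsular FACS, 4 to 7 in medullary LCM and 3 to 5 in subcapsular LCM. Their summed level ran from 0.15 to 2.95 in medullary FACS, 0.36 to 1.06 in subcapsular FACS, 1.74 to 3.62 in medullary LCM and 1.84 to 3.55 in subcapsular LCM. Prox1, the fate-setting transcription factor, was above background on every array. Lyve1, the hyaluronan receptor, was above background in 0 of 2 medullary FACS, 1 of 2 subcapsular FACS, 3 of 5 medullary LCM and 3 of 5 subcapsular LCM samples. Flt4 (the receptor VEGFR-3) was above background in 1 of 2 medullary FACS, 0 of 2 subcapsular FACS, 3 of 5 medullary LCM and 3 of 5 subcapsular LCM samples. Mmrn1 was above background in 0 of 2 medullary and 2 of 2 subcapsular FACS samples, and in 4 of 5 LCM samples of each sinus. Pdpn (podoplanin, a target of the sort) and Reln were above background in 2 of 2 medullary and 1 of 2 subcapsular FACS samples. For Tie1 these counts were 1 of 2 and 2 of 2. In medullary and subcapsular LCM, Pdpn was above background in 4 and 1 of 5 samples, Reln in 2 and 2, and Tie1 in 5 and 3. The part of these other cells in the results below was not tested. In samples of this kind, fewer T cells and less RNA per T cell cannot be told apart.

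**Figure D2:**
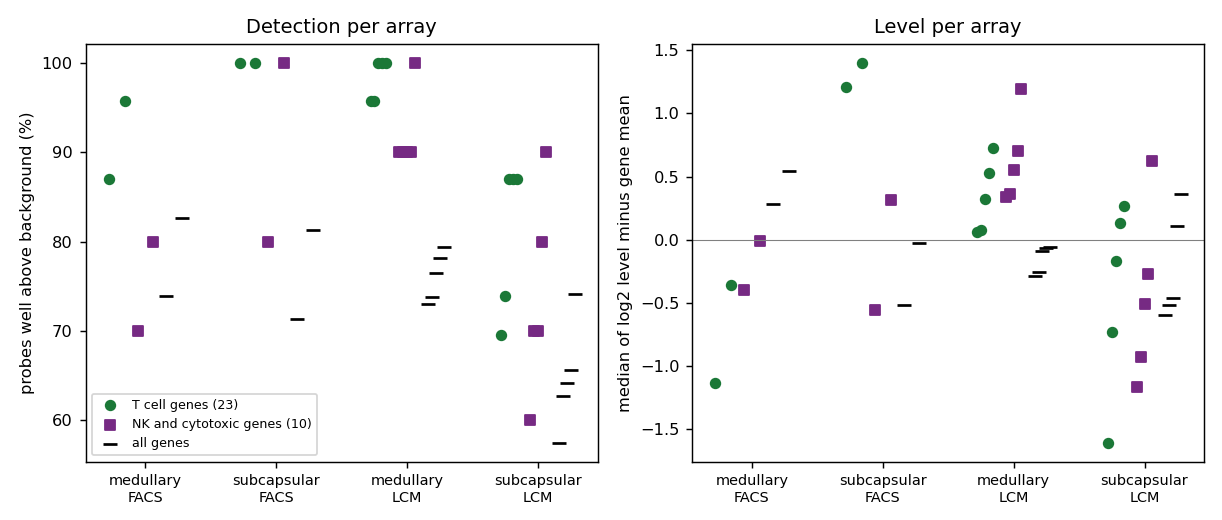
Points are arrays. The left panel gives the percentage of probes well above background and the right panel the median over genes of the log2 level minus the gene's mean over 14 arrays. The T cell genes have medians of −1.14 and −0.36 in medullary FACS and 1.21 and 1.4 in subcapsular FACS.

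The first comparison asked which of these genes differ between medullary and subcapsular sinus in laser-captured cells. No member passed limma's test at an adjusted p under 0.05, where 48 of 27380 genes tested did (0.175%). Most members were nevertheless on the medullary side. The T cell genes had a median difference (medullary minus subcapsular) of 0.94 with 18 of 23 positive, and the NK and cytotoxic genes one of 0.34 with 8 of 10 positive. Over all genes tested the median was 0.08 and 52.6% were positive. With arrays centred on the median of all genes the T cell, NK and all-gene medians were 0.08, −0.52 and −0.78, so the sign of the NK median depends on the scaling. At an unadjusted p under 0.05, 5 members were higher in medullary samples and 0 lower, against 6.88% and 4.81% of all genes. For none of the 33 were the 2 groups free of overlap, as they were for 3.09% of all genes. The 5 members were Cd3e, Cd8a, Cd8b1, Gzmb and Prf1. Of these, Cd8a, Cd8b1 and Gzmb entered the fit through the medullary samples only, where they were high. Their direction is therefore no added support. Sh2d1a, Bcl11b and Klrb1c also entered through the medullary samples only. In the same comparison all 8 genes of blood endothelium and venules were positive, with a median of 4.78; 5 of them did not overlap between the groups, and Darc, Fut7 and Chst4 passed the test. Their part in the T and NK values was not tested.

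The CD3 chains carry the signal of the T cell receptor into the cell. Cd3e (CD3 epsilon) measured −0.66, −1.3, −0.58, −0.42 and −0.75 in medullary LCM samples, against −1.42, −2.21, −0.87, −2.15 and −2.91 in subcapsular LCM samples. Only the lowest medullary sample lay below the highest subcapsular one, and the difference was 1.17 ± 0.51 (SE, limma adjusted p = 0.411). Cd3d measured 3.13, 3.61, 3.76, 3.47 and 2.99 in medullary LCM, against 1.89, −5.54, 2.96, 3.9 and 1.65 in subcapsular LCM, where replicate 2 was not above background. The medullary samples lay within 1 log2 unit of each other, and the highest subcapsular sample exceeded them all. Cd3g (CD3 gamma) and Cd247 differed by 0.64 ± 1 and 0.94 ± 1.66. The second Cd247 probe, above background in 3 of 5 medullary and 5 of 5 subcapsular samples, pointed the other way, by −1.16.

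The coreceptors came next, and none passed the test. Cd4, the helper T cell coreceptor for MHC class II, measured 2.07, 2.2, 2.4, 1.63 and 2.52 in medullary LCM, against 2.04, 5.25, 2.53, 2.26 and 0.96 in subcapsular LCM. The groups overlapped almost wholly, apart from the high subcapsular replicate 2, and the difference was −0.44 ± 0.74 (limma adjusted p = 0.853). Cd8a, a chain of the cytotoxic T cell coreceptor for MHC class I, measured 0.62, 1.45, 1.03, 1.09 and 1.87 in medullary LCM, against −5.53, 2.63, 0.94, −6.83 and −5.52 in subcapsular LCM. All medullary samples were above background, whereas only 2 subcapsular samples were, and 1 of those was the highest of all; the difference was 4.07 ± 1.72 (limma adjusted p = 0.4). Cd8b1, its partner chain, measured 0.44, 0.05, 1.34, 0.7 and −5.78 in medullary LCM, against −6.07, −5.61, −7.06, −0.72 and −4.51 in subcapsular LCM, a difference of 4.15 ± 1.52 (limma adjusted p = 0.35). Medullary replicate 5 was the exception for Cd8b1, being not above background although it had the group's highest Cd8a. Cd8b1 was above background in 2 of 5 subcapsular samples, as Cd8a was, so both differences rest partly on dim values. Whether Cd4 and the Cd8 genes differ from each other was not tested.

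No kinase or adaptor gene downstream of the receptor passed the test. Lck measured −0.29, 0.63, 0.12, −0.4 and 1.25 in medullary LCM, against −0.42, −1.16, 0.31, 0.79 and −0.14 in subcapsular LCM. These ranges overlapped and the difference was 0.39 ± 0.55 (limma adjusted p = 0.824). The kinase gene Zap70 and the scaffold gene Lat differed by 0.52 ± 0.7 and 0.87 ± 0.71. Sh2d1a, which encodes the adaptor SAP, differed by 3.02 ± 1.52, and was above background in 5 of 5 medullary and 2 of 5 subcapsular samples. Skap1 and Trat1, adaptor genes, differed by 1.1 ± 1.21 and 1.09 ± 2.32.

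Among the transcription factors, Tcf7 (TCF-1, a factor of naive and memory T cells) measured 2.97, 3.81, 3.74, 3.81 and 3.91 in medullary LCM, against 2.62, 0.07, 3.65, 3.96 and 3.69 in subcapsular LCM. Subcapsular replicate 2 was low and the rest overlapped, with a difference of 0.85 ± 0.75 (limma adjusted p = 0.71). Lef1 measured 2.49, 1.69, 1.67, 3.1 and −4.07 in medullary LCM, against 2.63, −4.4, −2.25, −5.99 and 0.88 in subcapsular LCM, a difference of 2.8 ± 1.82 (limma adjusted p = 0.579). The second Lef1 probe, above background in 5 of 5 samples of each sinus, differed by −0.32, so the 2 Lef1 probes disagree in LCM. Foxp3, the factor of regulatory T cells, measured −1.31, 0.88, −1.88, −1.84 and −1.62 in medullary LCM, against −2.02, −1.04, −2.73, −3.14 and −1.47 in subcapsular LCM. Its groups overlapped and the difference was 0.93 ± 0.68 (limma adjusted p = 0.637). Bcl11b, the factor that commits precursors to the T lineage, was above background in 5 of 5 medullary samples and in 1 of 5 subcapsular samples. That sample, replicate 2, was the highest of the 10 at 4.81. Without it the difference was 6.35 (limma adjusted p = 0.0355), against 4.16 ± 2.03 (limma adjusted p = 0.461) with it. Bcl11b passed in 1 of 24 alternatives, this one, and the sample left out was singled out by its value, so this is no added support.

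No costimulatory or inhibitory receptor gene passed the test. Cd2 and Cd6, adhesion receptors, differed by −0.97 ± 0.67 and −0.55 ± 0.45, and Cd28, the main costimulatory receptor, by −0.44 ± 0.74. The second probes of Cd2 and Cd6 pointed the other way, by 2.17 and 3.31, and with the mean of a gene's probes the differences were 0.6 and 1.38, so neither gene has a settled direction. Icos differed by −0.29 ± 1.69, Ctla4, the inhibitory counterpart of Cd28, by 1.04 ± 1.42, and Cd5, a brake on receptor signalling, by 1.49 ± 1.04.

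No NK receptor gene passed the test in LCM. Ncr1 (NKp46) measured 0.46, 1.02, 1.4, 0.23 and −1.49 in medullary samples, against −2.92, 1.45, −0.75, 2.32 and −0.04 in subcapsular samples. Klrb1c (NK1.1) was above background in 3 of 5 medullary and 2 of 5 subcapsular samples, with −2.9, −4.47, −5.01, −4.18 and −3.91 in medullary LCM, against −4.73, −3.97, −1.36, −5.02 and −2.1 in subcapsular LCM. Both ranges overlapped, with differences of 0.31 ± 0.98 and −0.66 ± 0.8. The second Klrb1c probe pointed the other way: it was above background in 3 of 5 medullary and 0 of 5 subcapsular samples and at least 4.27-fold higher in medullary LCM. Klrd1 (CD94), which pairs with NKG2 chains, and Klrk1 (NKG2D), an activating receptor, differed by 0.17 ± 1.6 and −1.49 ± 1.04.

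The granzyme and perforin genes were on the medullary side. Gzmb (granzyme B) measured −7.01, −0.73, 1.16, 1.02 and −2.38 in medullary LCM, where 4 of 5 samples were above background, against −5.92, −5.39, −5.36, −6.69 and −7.19 in subcapsular LCM, where 0 of 5 were. It was at least 9.89-fold higher in medullary samples, a bound taken against the dimmest signal above background on each subcapsular array (fitted difference 4.52 ± 1.39, limma adjusted p = 0.271). Medullary replicate 1 alone lay among the subcapsular values, and without it Gzmb passed the test with a difference of 5.88 (limma adjusted p = 0.0308). Gzmb passed in 1 of 22 alternatives, this one, and the sample left out was singled out by its value. Gzmb also entered the fit through the medullary samples only. Passing without that sample is therefore no added support. Prf1 (perforin) measured 2.32, 2, 3.2, 2.44 and 3.24 in medullary LCM, against 0.64, 2.53, −0.27, 0.19 and 2.57 in subcapsular LCM. The subcapsular samples fell into a low set and a pair as high as the medullary samples, and the difference was 1.51 ± 0.68 (limma adjusted p = 0.426). Gzma (granzyme A) measured −0.93, −0.7, 0.24, 0.78 and −5.02 in medullary LCM, against −2.58, −3.37, −4.38, −3.8 and −0.33 in subcapsular LCM, a difference of 1.76 ± 1.14 (limma adjusted p = 0.577). Medullary replicate 5, not above background, was the lowest of all 10, and the other medullary samples overlapped only the highest subcapsular one. Nkg7, a granule membrane protein gene, measured 4.11, 3.18, 4.21, 2.66 and 3.8 in medullary LCM, against 4.92, 3.12, 2.93, 3.53 and 2.82 in subcapsular LCM. Its ranges overlapped, with a difference of 0.12 ± 0.57. The factors Eomes and Tbx21 (T-bet), which drive the cytotoxic programme, differed by 3.58 ± 1.81 and 0.37 ± 0.5.

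Replicates of the subcapsular group were the more variable. The median standard deviation of the T cell genes was 0.76 over the 5 medullary LCM samples and 2.17 over the 5 subcapsular LCM samples, against 1.1 and 1.46 for all genes tested. For the NK and cytotoxic genes the 2 values were 0.99 and 1.6. These samples lay on 2 slides, with all subcapsular and 3 medullary LCM samples on slide 1. Within slide 1 the median sinus difference was 0.84 for T cell genes and 0.69 for NK and cytotoxic genes, and 0 members passed the test. Subcapsular replicates 1 to 4 lay on array row 1 of that slide, and subcapsular replicate 5 and its medullary samples on row 2. Sinus and array row thus nearly went together within slide 1.

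The second comparison took the sinus difference in sorted cells, which had 2 arrays a side. The T cell genes lay on the opposite side from LCM, with a median of −1.75 and 18 of 23 negative, whereas the NK and cytotoxic genes had a median of 0.42 with 4 of 10 negative. The median over all genes tested was 0.74, with 40.5% negative. The NK median was −0.29 under quantile normalization and −0.28 in the deposited table, where the all-gene median was 0.43; the T cell median stayed between −2.16 and −1.36 over the 5 other scalings. No member passed limma's test, as none of the 27662 genes tested did (0%). At an unadjusted p under 0.05, 9 members were lower in medullary samples and 0 higher, against 13.7% and 18.2% of all genes. The 9 include Lef1, Klrd1, Klrk1, Trat1 and Eomes, which entered the fit through the subcapsular samples only, where they were high. The direction of these genes is therefore no added support. The T cell genes had 15 members whose medullary values all lay below the subcapsular ones and 3 whose values all lay above, against 26.7% and 43% of all genes. The NK and cytotoxic genes had 4 and 1. The counts of lower genes without overlap include the same genes and Bcl11b, which also entered through the subcapsular samples only. In these 4 arrays sinus and array row cannot be told apart.

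Lef1 measured −5.09 and −4.69 in medullary FACS, not above background, against 3.94 and 4.36 in subcapsular FACS. It was at least 421-fold lower in medullary FACS, a bound taken against the dimmest signal above background on each medullary array (fitted difference −9.03 ± 0.59, limma adjusted p = 0.0645). Tcf7 measured −0.79 and 0.46 in medullary FACS, against 4.69 and 4.18 in subcapsular FACS, a difference of −4.6 ± 0.73 (limma adjusted p = 0.0753). Both genes were separated by several log2 units while duplicates stayed close. The second probe of each pointed the same way. That of Tcf7 measured −6.55 and −1.91 in medullary FACS against 0.77 and 1.15 in subcapsular FACS, and that of Lef1 measured −4.25 and −6.3 in medullary FACS, not above background, against 0.47 and 0.94 in subcapsular FACS.

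None of the CD3 genes passed the test in sorted cells. Cd3d measured 3.26 and 1.1 in medullary FACS, against 4.6 and 3.92 in subcapsular FACS, a difference of −2.08 ± 0.97 (limma adjusted p = 0.212). Cd3e, the gate's own target, measured −0.89 and 0.23 in medullary FACS, against −1.07 and −1.34 in subcapsular FACS, a difference of 0.87 ± 0.68 (limma adjusted p = 0.386). Medullary samples were thus the lower ones for Cd3d and the higher ones for Cd3e, with no overlap in either. Over all genes, 26.7% were lower and 43% higher without overlap, and the difference of Cd3e was close to the all-gene median of 0.74. Whether the 2 genes differ from each other was not tested. Cd3g and Cd247 differed by −1.57 ± 0.96 and −3.6 ± 1.07. Each Cd3 probe was well above background on all 4 FACS arrays, although CD3e protein was a target of the lineage cocktail.

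No coreceptor gene passed in sorted cells. Cd4 measured 2.06 and 2.81 in medullary FACS, against 1.45 and 1.46 in subcapsular FACS, a difference of 0.98 ± 0.61 (limma adjusted p = 0.298). Cd8a measured −1.14 and −1.92 in medullary FACS, against −0.11 and 0.48 in subcapsular FACS, a difference of −1.72 ± 0.65 (limma adjusted p = 0.165). The medullary samples were the higher ones for Cd4 and the lower ones for Cd8a, without overlap, and the difference of Cd4 was close to the all-gene median of 0.74. The second Cd4 probe differed by 0.19. The second Cd8a probe, not above background in medullary FACS, was at least 88.4-fold lower there. Lck measured 1.06 and 1.12 in medullary FACS, against 1.02 and 1 in subcapsular FACS, a difference of 0.08 ± 0.55. Zap70 and Lat differed by 0.23 ± 0.81 and −0.01 ± 0.64, though the second Zap70 probe differed by −6.16, so the 2 Zap70 probes disagree.

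Ctla4 measured −1.31 and −1.99 in medullary FACS, against 3.25 and 2.78 in subcapsular FACS, a difference of −4.66 ± 0.62 (limma adjusted p = 0.0677). Foxp3, which regulatory T cells express together with Ctla4, measured −0.37 and 0.15 in medullary FACS, against 0.26 and −2.01 in subcapsular FACS, a difference of 0.76 ± 0.99 (limma adjusted p = 0.59). The Ctla4 groups were far apart and those of Foxp3 overlapped. Trat1 differed by −4.81 ± 1.25 (limma adjusted p = 0.118) and Cd2 by −1.8 ± 0.6 (0.145). Cd28, Icos, Bcl11b, Sh2d1a and Skap1 had differences between −4.2 and −1.3 at unadjusted p-values from 0.0667 to 0.226, each without overlap. Over all genes, 26.7% were lower without overlap. The other Icos probes differed by −0.4 and 0.16, the other Skap1 probes by −2.23, −2.1 and 0.31, and the second Bcl11b probe by −4.9. Cd5, Cd6 and Cd8b1 differed by −0.95 ± 1.48, −0.49 ± 0.58 and −2.32 ± 1.75.

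Within the NK and cytotoxic genes, Klrd1 and Klrk1 lay on the subcapsular side and perforin on the medullary side. Klrd1 measured −4.35 and −6.56 in medullary FACS, not above background, against 1.05 and −0.33 in subcapsular FACS, and was at least 27.7-fold lower in medullary samples (fitted difference −5.82 ± 1.07, limma adjusted p = 0.0872). Klrk1, also not above background in medullary FACS, was at least 1.58-fold lower (fitted difference −2.13 ± 0.65, limma adjusted p = 0.136). Prf1 measured 3.39 and 2.75 in medullary FACS, against 1.95 and 0.64 in subcapsular FACS, a difference of 1.77 ± 0.75 (limma adjusted p = 0.189). The perforin groups did not overlap, where 43% of all genes were higher without overlap and the all-gene median was 0.74. Gzma measured −2.29 and −2.42 in medullary FACS, against −3.62 and −2.11 in subcapsular FACS. Gzmb measured 0.47 and −2.46 in medullary FACS, against −0.28 and −6.41 in subcapsular FACS. Both overlapped. Ncr1 measured 1.14 and −2.31 in medullary FACS, against −0.28 and −4.3 in subcapsular FACS, and Klrb1c −3.35 and −3.44 in medullary FACS, against −1.99 and −5.48 in subcapsular FACS. These overlapped too, and the duplicates of Ncr1 were over 3 log2 units apart in each group. Nkg7 measured 2.09 and 2.83 in medullary FACS, against 3.73 and 3.55 in subcapsular FACS, a difference of −1.17 ± 0.61 (limma adjusted p = 0.241). Eomes differed by −4.86 ± 1.48 (limma adjusted p = 0.135) at its brighter probe, and Tbx21 by 0.5 ± 0.68. The second probes of Eomes and Klrb1c were not above background in subcapsular FACS and were at least 2.21-fold and 19.6-fold higher in medullary FACS, so the 2 Eomes probes disagree.

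**Figure D3:**
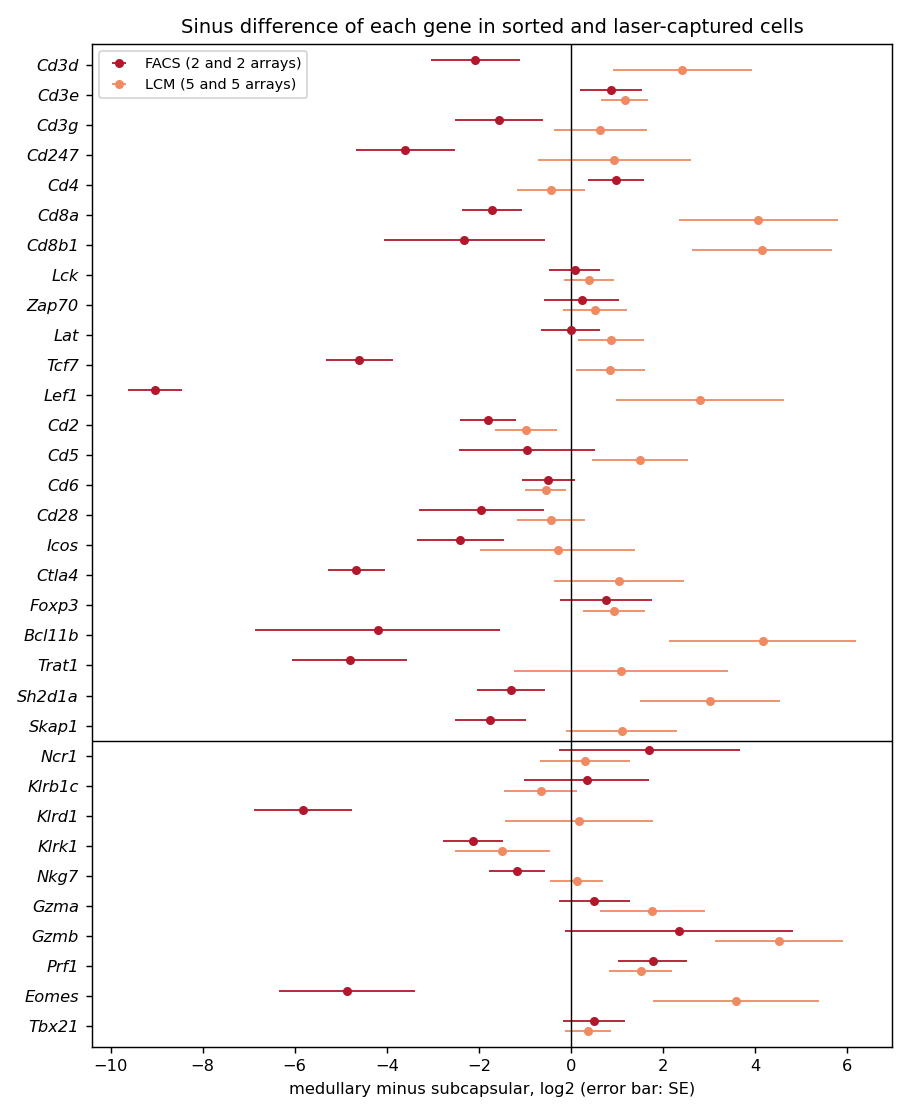
Points give the sinus difference (medullary minus subcapsular, log2) of each of the 33 genes in FACS and in LCM, with bars for the standard error from limma. The FACS points of most T cell genes lie left of 0 and the LCM points right of it, with Lef1 at −9.03 and 2.8, whereas Prf1 lies right of 0 in both, at 1.77 and 1.51.

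All 14 arrays entered 1 fit to test whether isolation changed how the sinuses differ. Tcf7 was the one member that passed, with a FACS-minus-LCM change in its sinus difference of −5.45 ± 1.16 (limma adjusted p = 0.0422), where 386 of 29689 genes passed (1.3%), 0.741% of all in the same direction. The value stayed between −6.25 and −4.77 over 27 alternatives, with limma adjusted p-values from 0.0162 to 0.213, but the call was lost in 17 of them, among them a slide block (0.172). It was lost without subcapsular LCM replicate 1, any medullary LCM sample, either subcapsular FACS sample or medullary FACS replicate 6 (limma adjusted p = 0.0518 to 0.213). Lef1 gave −11.84 ± 2.67 (limma adjusted p = 0.0511) and passed in 11 of 27 alternatives. Its second probe had sinus differences of −5.98 in FACS and −0.32 in LCM. Both genes were bright in subcapsular FACS and in medullary LCM, except for Lef1 in medullary LCM replicate 5, and dim in medullary FACS. In subcapsular LCM, Tcf7 was also bright (2.62 to 3.96) except in replicate 2 (0.07), and Lef1 ran from −5.99 to 2.63. At an unadjusted p under 0.05, 8 members were negative (Tcf7, Lef1, Cd8a, Cd8b1, Ctla4, Bcl11b, Klrd1 and Eomes) and 0 positive, against 8.7% and 12.6% of all genes. The median was −2.44 for T cell genes with 21 of 23 negative and −0.95 for NK and cytotoxic genes with 6 of 10 negative, against 0.52 and 42.3% negative for all genes tested. Cd3e (−0.3 ± 0.82), Lck (−0.3 ± 0.82), Zap70 (−0.29 ± 1.13) and Prf1 (0.27 ± 1.07) gave values near 0 at the probe used. Zap70 has a second probe with sinus differences of −6.16 in FACS and 2.13 in LCM, and gave −4.29 with the mean of its probes (limma adjusted p = 0.177). This test uses the same arrays as both sinus comparisons and adds no independent samples.

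**Figure D4:**
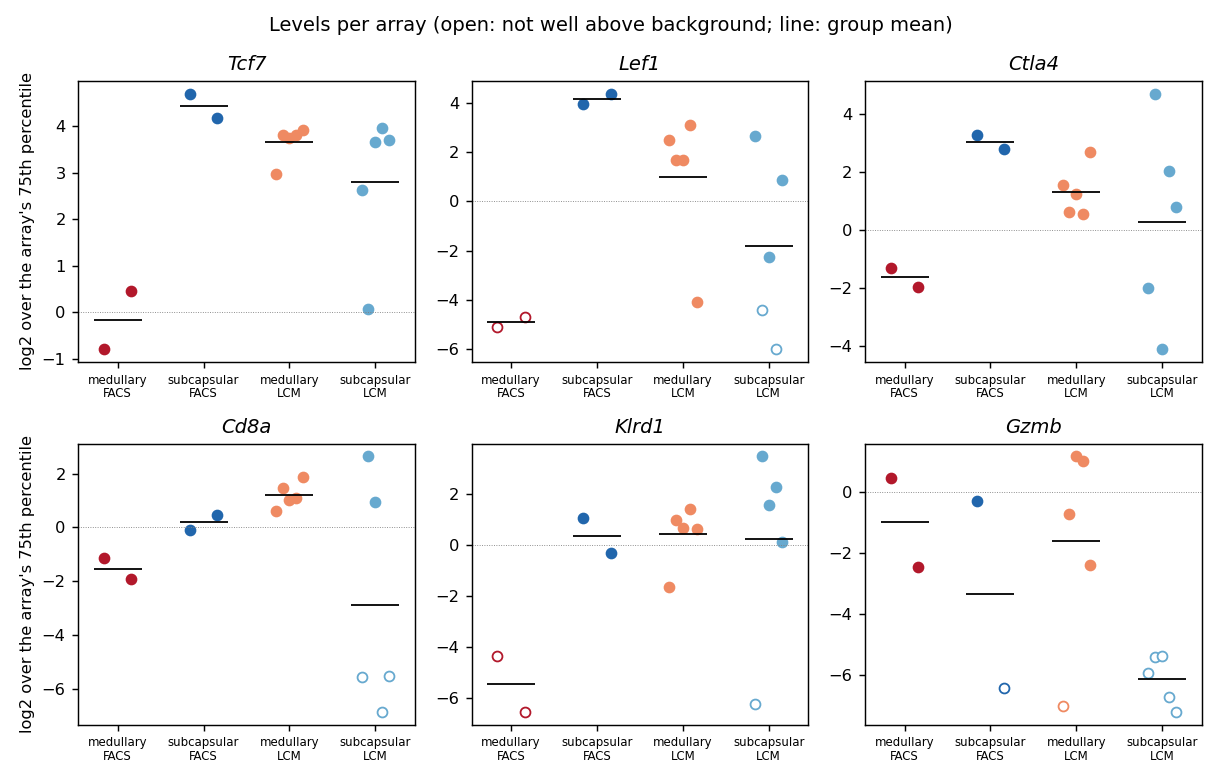
Points are arrays and lines are group means of the log2 level over the array's 75th percentile, with open points not well above background. Tcf7, Lef1 and Ctla4 are dim in both medullary FACS samples, and Gzmb is above background in 4 of 5 medullary LCM and 0 of 5 subcapsular LCM samples.

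The last comparison set sorted against laser-captured cells over both sinuses, and isolation again went together with cell number, nodes and mostly slide. Although sorting used a lineage cocktail that holds a T cell antibody, no member passed limma's test, where 1147 of 29689 genes did (3.86%). The T cell genes had a median FACS-minus-LCM difference of 0.56 with 15 of 23 positive, the NK and cytotoxic genes −0.24 with 5 of 10 positive, and all genes tested 0.17 with 57.3% positive. The NK median was 0 when the percentile was taken over probes above background on all arrays, where the all-gene median was 0.4. At an unadjusted p under 0.05, Cd8b1 (3 ± 1.26) and Lck (0.98 ± 0.41) were higher in FACS, and Klrd1 (−2.87 ± 1.22) and Klrk1 (−2.04 ± 0.78) were lower, against 9.44% and 6.61% of all genes. Klrd1 passed the test without subcapsular LCM replicate 1 (−3.68, limma adjusted p = 0.012) and Klrk1 without subcapsular LCM replicate 2 (−2.48, 0.0363). Each sample left out held the gene's lowest LCM value, so this is no added support. Of 30 alternatives each, Klrd1 passed in 2 and Klrk1 in 1. For 0 of the 33 members were FACS and LCM free of overlap, as against 1.01% of all genes. Cd3e, the gated gene, differed by 0.56 ± 0.41 (limma adjusted p = 0.566), and the sign of this value was kept in all 30 alternatives.

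Each sinus was also taken alone. Among medullary samples alone, 4 members passed the test and were lower in FACS, where 1731 of 28819 genes passed (6.01%) and 3.74% of all were lower, namely Cd247 (−4.06, limma adjusted p = 0.017), Cd8a (−2.74, 0.0308), Tcf7 (−3.82, 0.0113) and Klrd1 (−5.86, 0.0198). The second Cd247 probe had means of −4.04 in medullary LCM and −4.06 in medullary FACS, so the 2 Cd247 probes disagree. It was above background in 3 of 5 and 1 of 2 of these samples. Second probes of Cd8a and Tcf7 were lower in medullary FACS too. Klrd1 entered this fit through the LCM samples only. Among subcapsular samples alone 0 passed, as against 0.766% of all genes. The T cell median was −0.58 among medullary and 1.64 among subcapsular samples. All FACS samples and 2 medullary LCM samples lay on slide 2. Among the medullary samples of slide 2 the T cell median was −0.51, and 0 members passed. Slide and isolation can otherwise not be told apart for the subcapsular samples.

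Further genes of both cell types were read from lists of 40 T cell and 30 NK and cytotoxic genes. In LCM, 38 of the T cell genes were tested and had a median sinus difference of −0.2 with 26 negative, opposite in sign to the 0.94 of the 23 T cell members. Of the NK and cytotoxic genes 25 were tested, with a median of 1.37, 17 positive and 1 passing, Klrg1, a receptor of mature NK and effector T cells (4.56 ± 0.72, limma adjusted p = 0.043). In FACS the 40 T cell genes had a median of −2.12 with 34 negative, and 26 NK and cytotoxic genes one of 0.23 with 12 negative. Neither list had a gene that passed there. Between these sinus differences, Ms4a4b, a membrane protein gene of naive T cells, passed with −5.68 ± 0.99 (limma adjusted p = 0.019), as the only one of the 40 T cell and 27 NK and cytotoxic genes tested. In FACS minus LCM the 40 T cell genes had a median of −0.52 with 25 negative, opposite in sign to the 0.56 of the 23 T cell members. The 27 NK and cytotoxic genes had a median of 0.32 with 8 negative. Among the T cell genes, Ccr7, the homing receptor of naive T cells, passed at 2.82 ± 0.7. Il2rb, an interleukin receptor chain, Ms4a4b, and Ptprc (CD45) passed at −2.86 ± 0.65, −2.72 ± 0.49 and −1.94 ± 0.43. The limma adjusted p-values of these 4 ran from 0.00782 to 0.0412.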

How the data were processed

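Per the file headers, the 14 single-colour Cy3 arrays were read with Agilent Feature Extraction 10.7.3.1, with probe positions on mm9. Per the labels, RNA was lysed in SuperAmp buffer and labelled by a commercial protocol. The deposited scanner files hold intensity values, background-corrected by that software; the deposited log2 table (column medians 5.43, correlation with the scanner values at least 0.979) served as an alternative, and its normalization is not given in the sources used here. Other columns used are the software's flags.

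Levels are log2 processed intensity minus each array's 75th percentile. Outlier spots were left out and spots of a probe averaged. Genes entered a fit if well above background in 3 of 5 LCM or 2 of 2 FACS arrays of a sinus. limma 3.58.1 (R 4.3.3) fitted group means, over all 14 arrays with array weights by isolation for the last 2 comparisons, with Benjamini-Hochberg adjustment over all genes and a threshold of 0.05. The fits were tested on simulated data. Members and lists were chosen with earlier results of these data known. Every member is accounted for; values per sample are given for members that passed any of the 4 tests and for Cd3e, Cd3d, Cd4, Cd8a, Lck, Tcf7, Ncr1, Klrb1c, Nkg7, Gzma, Gzmb, Prf1 and Foxp3, and for others where a count or bound turns on them, chosen after their values were seen. Same-numbered LCM samples of the 2 sinuses did not deviate together (correlations −0.0204 to 0.00498), and numbers were not used as pairs. In FACS the correlation was −0.0109, but the deviations of 2 samples in a group mirror each other. That value therefore cannot show whether FACS numbers are pairs. Replicate 6 had the higher detection in both sinuses. The number of arrays limits the precision.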

Additional observations from a re-analysis of the deposited data

Results flagged for a closer look

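Within the LCM groups, 8 values lay farther from the rest of their group than Dixon's 95% limit for 5 samples allows: 6 among the 33 genes in medullary samples and 2 among the 33 in subcapsular samples, where chance gives about 5% of the groups tested. In the medullary group Cd247 was high in replicate 4 (2.35, others 1.8 to 1.91) and Foxp3 was high in replicate 2 (0.88, others −1.88 to −1.31). Tcf7 and Klrd1 were both low in replicate 1 (2.97, others 3.74 to 3.91, and −1.65, others 0.63 to 1.41). Cd8b1 and Lef1 were both low in replicate 5 (−5.78, others 0.05 to 1.34, and −4.07, others 1.67 to 3.1). In the subcapsular group both values came from replicate 2, with Cd3d low (−5.54, others 1.65 to 3.9) and Bcl11b high (4.81, others −7.27 to −4.83). The causes were not tested. The sinus difference of Tcf7 differed between FACS and LCM by −5.45 in limma's test of that difference (adjusted p = 0.0422), with the exceptions given under the alternatives.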

How the results depend on the processing

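In LCM the count of members passing stayed at 0 in 22 of 24 alternatives, and leaving out a sample gave 0 to 1. In FACS it was 3 with a trended, robust variance, 3 with arrays centred on the median of all genes (an alternative chosen after seeing the data) and 1 with all 14 arrays in 1 fit, and 0 in the others. The difference between isolations had 1 member passing (Tcf7). It had 2 with normexp, quantile normalization, the deposited table, the stricter filter, or a trended, robust variance, 3 with the mean of a gene's probes, and 0 with the percentile over probes detected on all arrays, no filter, a replicate block, a slide block, a row block or no array weights; leaving out a sample gave 0 to 2. FACS minus LCM had 0 passing, 4 within the medullary samples, and 0 to 1 when a sample was left out. Over all genes, 48 passed in LCM, with 8 (normexp, median centring), 14 (row block), 15 (quantile), 16 (deposited table), 104 (stricter filter), 127 (slide block), 225 (detected percentile), 248 (slide 1 only) and 23 to 104 with a sample left out. In FACS the 0 became 1813, 1124 and 899 under the 3 alternatives above. Between isolations 386 became 48 (slide block), 109 (no weights), 170 (row block), 694 (normexp), 1143 (deposited table), 1155 (quantile) and 11 to 1278 with a sample left out. In FACS minus LCM 1147 became 0 (medullary samples of slide 2), 184 (slide block), 196 (subcapsular samples), 747 (no weights), 1731 (medullary samples) and 613 to 1665 with a sample left out.

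With the replicate number as a block, 0 members passed in each sinus comparison, and 0 genes in LCM and between isolations. Scaling moved the all-gene median from −0.78 to 0.81 in LCM and from 0.32 to 0.84 in FACS; centred on the median of all genes, the T cell and NK medians in LCM were 0.08 and −0.52. Slide and row blocks could not be fitted within FACS, nor slide 2 alone for the difference between isolations. Causes of these changes were not tested. Signal near background limits 16 of the 33 members, which were not above background on some arrays; for 4 of them (Lef1, Klrd1, Klrk1 and Gzmb) this held for every array of a group.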
